A study of Mus musculus with 24 samples.

Results

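The genes described are 10 of the 23420 entries in a table of read counts from mouse cochlea. They are the MAP kinase phosphatases Dusp1, Dusp2, Dusp4, Dusp5, Dusp6 and Dusp10, the Sprouty genes Spry1, Spry2 and Spry4, and the Sprouty-related gene Spred1. They were taken by gene symbol as feedback inhibitors of MAP kinase signalling. The choice was made with earlier results of these data known, so counts of calls among them are description. All 10 passed the filter on low counts, which kept 16607 genes for testing.

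RNA was counted in whole cochleae of CBA/Sca mice aged 12 weeks, in 8 groups of 3 libraries (a, b and c). Surgery was either adrenalectomy (ADX), after which adrenal glucocorticoid is no longer made, or a sham operation. Noise of 6 to 12 kHz at 100 dB SPL was given for 1 h from zeitgeber time (ZT) 3, called day here, or from ZT15, called night, and unexposed groups had a sham exposure. The series text puts collection 2 h after the noise, whereas the labels give ZT11 and ZT23, and these do not match. The 4 unexposed groups were day sham-operated, night sham-operated, day ADX and night ADX, and each had a noise-exposed counterpart. No label says that libraries came from separate animals, so the p-values measure only the spread between these samples. In whole tissue, more cells of a type and more RNA per cell cannot be told apart.

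MAP kinase cascades pass a signal from receptors through Ras and Raf to ERK, or through stress-activated kinases to JNK and p38. Dual-specificity phosphatases remove the activating phosphates from ERK, JNK or p38, while Sprouty and Spred proteins restrain the cascade upstream, at Ras and Raf. Many of these inhibitors are transcribed in response to the cascade itself, which makes them negative feedback genes; in the cochlea, Spry2 is known for limiting fibroblast growth factor signalling in the developing organ of Corti.

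Upstream sequence is shown for 3 phosphatases that rose with noise, because it differs in known signal-responsive elements: Dusp1 and Dusp5 hold such elements and Dusp6 holds none of those searched. The sequences are from RefSeq (GRCm38.p6), read 5′ to 3′ on the gene's strand, from the 250 bases before the RefSeq start and without bases that GENCODE vM21 places in an exon of the gene. Capitals mark the cAMP response element and its core and, in Dusp5, a pair of adjoining CArG boxes, the element bound by serum response factor. Dusp1 is chr17:26508520-26508722 (minus strand), Dusp5 is chr19:53528895-53529108 (plus strand) and Dusp6 is chr10:99262981-99263230 (plus strand).
Dusp1: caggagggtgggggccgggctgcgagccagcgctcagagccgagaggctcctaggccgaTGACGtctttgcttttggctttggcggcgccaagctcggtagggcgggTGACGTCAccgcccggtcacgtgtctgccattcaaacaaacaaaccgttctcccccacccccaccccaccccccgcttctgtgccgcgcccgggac
Dusp5: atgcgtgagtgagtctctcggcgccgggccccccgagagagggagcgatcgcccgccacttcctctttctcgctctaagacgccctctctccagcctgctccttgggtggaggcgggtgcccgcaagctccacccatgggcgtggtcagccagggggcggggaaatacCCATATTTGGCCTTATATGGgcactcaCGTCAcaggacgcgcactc
Dusp6: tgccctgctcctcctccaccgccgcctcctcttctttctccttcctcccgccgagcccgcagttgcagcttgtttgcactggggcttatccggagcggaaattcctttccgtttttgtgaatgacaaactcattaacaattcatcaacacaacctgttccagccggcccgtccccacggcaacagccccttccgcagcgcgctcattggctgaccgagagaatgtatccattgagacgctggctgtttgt

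Motifs were searched on both strands of the 250 bases, for 8 of the 10 genes and for 32851 RefSeq promoters. The full cAMP response element, TGACGTCA, lay 143 to 136 bases before the start of Dusp1, and 1.55% of all promoters hold it. Its core, TGACG, which is also part of the full element, lay once more in Dusp1 at 191 to 187 bases and once in Dusp5 at 55 to 51 bases, against 17.8% of all promoters. The CArG boxes of Dusp5 lay at 82 to 73 and 72 to 63 bases, and 0.0183% of promoters hold 2 or more, against 1.47% with at least 1. The AP-1 element TGANTCA (6.75% of promoters) and the ETS core CCGGAA (12% of promoters) had no match in these 8 windows, and none of the motifs had a match in Dusp2, Dusp6, Dusp10, Spry1, Spry2 or Spred1. A match is a description of the letters in this window, and binding was not measured.

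All libraries held from 18894996 to 36108962 counts, and the 10 genes together took from 236 to 260 CPM (counts scaled to a common library size) in the 12 unexposed libraries and from 292 to 475 in the 12 noise libraries. The summed hair cell markers ranged from 164 to 266 CPM and those of the stria vascularis from 2432 to 3472 CPM, with no marker of either list at 0 in any library. Per kilobase of exon, the order of levels in the unexposed day sham-operated group was Dusp6 at 18.1 CPM per kb, Dusp1 at 16.7, Spry2 at 10.4, Dusp4 at 7.15, Spry1 at 6.48, Spred1 at 6.38, Dusp2 at 5.95, Dusp10 at 4.33, Spry4 at 2.43 and Dusp5 at 1.57. After night noise in sham-operated mice Dusp1 led at 50.5 CPM per kb and Dusp6 followed at 27.7, while Dusp5 remained lowest at 4.05. Levels below are CPM within a gene, scaled by edgeR, and differences are log2 fold changes of noise over sham exposure unless said otherwise.

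With noise 7 of the 10 genes rose: Dusp1, Dusp4, Dusp5, Dusp6, Dusp10, Spry2 and Spry4 passed edgeR's quasi-likelihood test on the mean of the 4 noise contrasts, while Dusp2, Spry1 and Spred1 did not and no member fell. Over all genes tested 2.4% were called higher in that test. The median log2 difference was 0.436 over the 10 genes and -4e-04 over all genes. Dusp1 rose most, 2.76-fold (log2 1.46, SE 0.114, adjusted p = 4.79e-08), followed by Dusp5 at 2.11-fold, Dusp4 at 1.78-fold and Spry4 at 1.62-fold. Dusp6 rose 1.36-fold, Dusp10 1.35-fold and Spry2 1.24-fold. The 7 calls held in every alternative fit of the mean contrast and without any 1 of the 24 libraries.

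**Figure D1:**
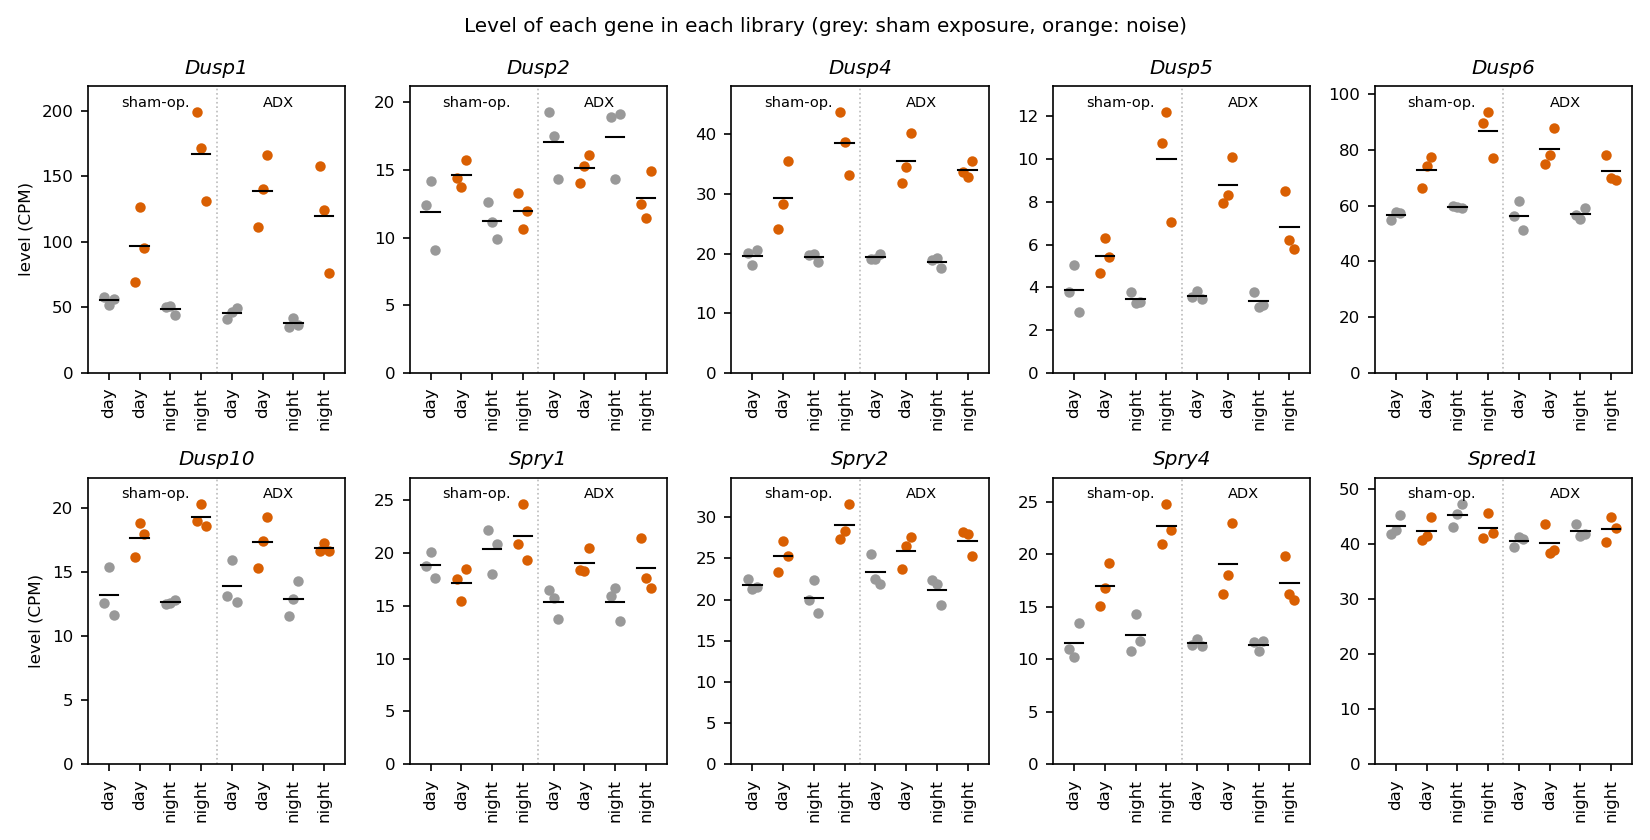
Level of each gene in CPM (vertical axes from 0) in each of the 24 libraries, by time and surgery; grey points are sham exposure, orange points are noise, and bars are means of 3 libraries. Dusp1 lies between 34.96 and 58.2 CPM in the grey libraries and between 69.5 and 199 in the orange ones, while Spred1 stays between 38.3 and 47.4 throughout.

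Taken pair by pair, night noise in sham-operated mice gave 7 calls of 10 (the same 7 genes), where 0.668% of all genes were called higher. Day noise in ADX mice gave 5 (Dusp1, Dusp4, Dusp5, Dusp6 and Spry4), where 2.01% of genes were. Night noise in ADX mice gave 4 (Dusp1, Dusp4, Dusp5 and Spry4), where 0.434% were. Day noise in sham-operated mice gave 1, Dusp4, where 0.211% were. The medians of the 10 log2 differences were 0.577, 0.416, 0.371 and 0.386 in that order, against all-gene medians of 0.0048, -0.0113, -6e-04 and -0.007. All 3 noise libraries lay above all 3 unexposed ones for 6 of the 10 genes by day and 7 by night in sham-operated mice, where 8.19% and 6.91% of all genes did so. In ADX mice the same was seen for 6 by day and 7 by night, against 12.2% and 6.83% of all genes.

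Markers of other cell types moved in the day ADX pair, described first, and some also moved in other pairs. Of 7 macrophage markers 4 rose with noise, Aif1 and the complement genes C1qa, C1qb and C1qc, with log2 differences from 0.47 to 0.65, and the 7 summed to 544 to 696 CPM against 462 to 487 without noise. Of all genes 2.01% were called higher in this pair. In the other 3 pairs 0 of the 7 passed. In the day ADX pair erythroid sums were also wholly higher with noise (3314 to 3613 against 2236 to 2783). Hair cell sums were wholly lower (164.4 to 171.9 against 172.4 to 222). Neutrophil and marrow markers had a median log2 difference of 0.318, glia and myelin markers one of -0.373 and supporting cell markers one of -0.32. Their sums overlapped for the neutrophil markers (6676 to 12290 CPM against 5950 to 8134) and were wholly lower with noise for glia and myelin (2298 to 3173 against 3185 to 3669) and for supporting cells (637 to 822 against 899 to 966). After day noise in sham-operated mice, spiral ganglion neuron sums were wholly higher (2448 to 2652 against 1642 to 2102). Glia and myelin sums were wholly higher too (3136 to 3717 against 2726 to 3051). By night neuron sums were wholly lower in sham-operated mice (2010 to 2183 against 2238 to 2712). Bone sums were wholly lower in the night ADX pair (2118 to 3225 against 3373 to 3639). Not every list is given, and the part of these shifts in the calls was not tested.

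**Figure D2:**
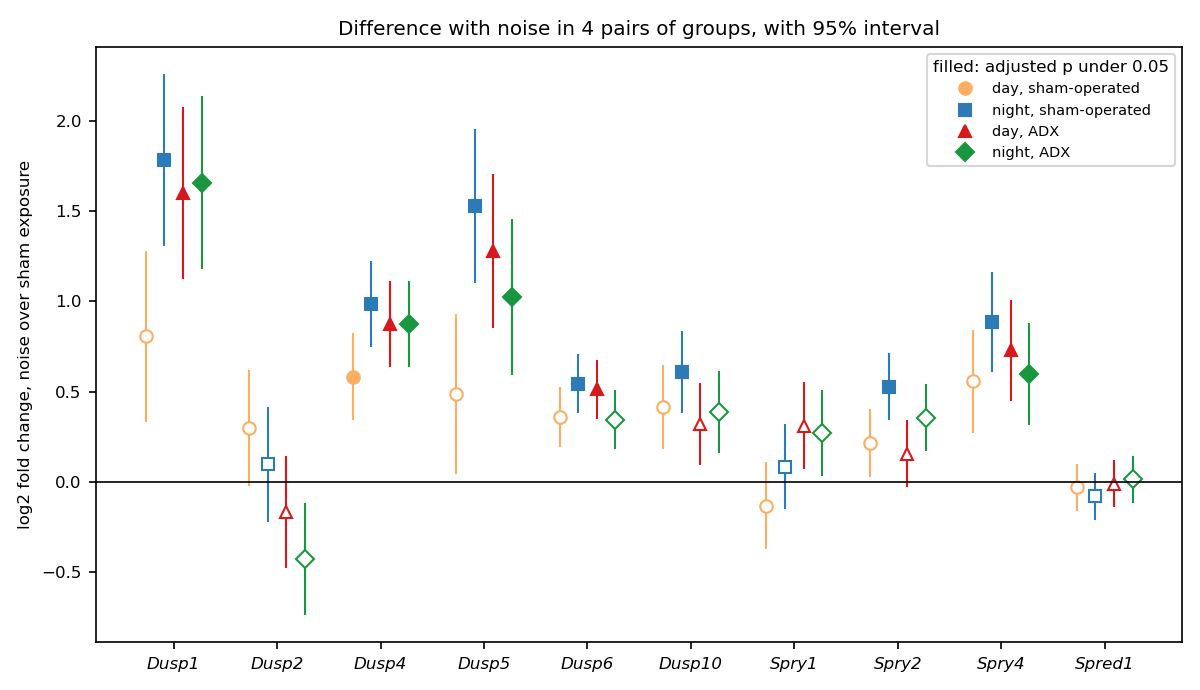
Log2 fold change of noise over sham exposure (vertical axis) for each gene in the 4 pairs of groups, with 95% intervals from edgeR; filled symbols have an adjusted p under 0.05. Dusp1 and Dusp5 have the highest points, from 0.81 to 1.78 and from 0.49 to 1.53, and Spred1 lies within 0.08 of 0 in each pair.

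Among the phosphatases of the nucleus, Dusp1 acts on p38, JNK and ERK and is also a textbook glucocorticoid-induced gene. In unexposed sham-operated mice its levels were 58.2, 51.5 and 56.4 CPM by day and 49.97, 51.2 and 44.4 by night. After noise they were 69.5, 126 and 95.1 CPM by day and 199, 171 and 131 by night. Both noise groups lay wholly above their controls, with the day noise libraries below all night ones. The night difference was 3.44-fold (log2 1.78, SE 0.228, adjusted p = 0.00017) and the day difference 1.75-fold, which did not pass (log2 0.81, SE 0.227, adjusted p = 0.225).

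In ADX mice, unexposed Dusp1 levels were 41.2, 46.7 and 49.2 CPM by day and 34.96, 42.1 and 36.4 by night. After noise they were 111, 140 and 166 CPM by day and 157.5, 124.5 and 75.9 by night. Every noise library again lay above its controls, and night library c was the lowest of the noise-exposed ADX libraries. The rise was 3.04-fold by day (log2 1.60, adjusted p = 0.000508) and 3.16-fold by night (log2 1.66, adjusted p = 0.000648). The night ADX call was lost when only the 2 groups compared entered the fit (adjusted p = 0.208). The 19 tested genes of the glucocorticoid-induced list moved with these libraries: in the day noise libraries labelled ADX, their log2 level centred over the 24 libraries averaged 0.273, 0.182 and 0.224, but -0.508 to -0.466 in the unexposed day ADX group. Night noise libraries labelled ADX were at 0.453, -0.173 and -0.374. Of these 19 genes, 10 were called higher in the mean noise contrast, against 2.4% of all genes. That contrast includes the noise libraries labelled ADX, so hormone and noise were not separated in the level of these genes. By pair, 2 were called higher by day and 3 by night in sham-operated mice, and 8 and 3 in ADX mice. The part of this list in the Dusp1 result was not tested.

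Dusp4, a nuclear phosphatase that acts on ERK and JNK, had unexposed levels between 17.5 and 20.6 CPM. In sham-operated mice it was at 20.1, 18.02 and 20.6 CPM by day and 19.7, 20.01 and 18.6 by night without noise, and at 24.1, 28.3 and 35.6 by day and 43.8, 38.8 and 33.2 by night with it. ADX libraries were at 19.2, 19.03 and 19.9 CPM by day and 18.9, 19.2 and 17.5 by night without noise, and at 31.9, 34.6 and 40.3 by day and 33.7, 32.9 and 35.5 by night with it. No noise library of any group fell within the unexposed range, which ended at that value. The fold differences were 1.497 and 1.98 by day and night in sham-operated mice and 1.84 in both ADX pairs. Dusp4 was the only member called in all 4 pairs, with adjusted p = 0.0293, 3.08e-05, 0.000115 and 0.000217 for day and night sham-operated and day and night ADX.

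The day sham-operated call of Dusp4 was the least secure of these. It held without noise library a (adjusted p = 0.00379) and was lost without any 1 of the other 5 libraries (0.0829 to 0.241). With the replicate letter as a block, the fit of all libraries kept the call and a fit of these 2 groups alone, added after the data were seen, did not (adjusted p = 0.0973).

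Dusp5, a nuclear phosphatase specific to ERK, had the lowest counts, from 64 to 295 per library. Unexposed sham-operated levels were 3.78, 5.02 and 2.84 CPM by day and 3.80, 3.28 and 3.30 by night, and after noise 4.67, 6.29 and 5.42 by day and 10.8, 12.2 and 7.05 by night. The day groups overlapped and the night groups did not. By night Dusp5 rose 2.885-fold (log2 1.53, SE 0.206, adjusted p = 0.00017), and by day the difference was 1.40-fold (adjusted p = 0.525). Levels in ADX mice were 3.55, 3.84 and 3.43 CPM by day and 3.77, 3.08 and 3.20 by night without noise, and at 7.93, 8.30 and 10.1 by day and 8.52, 6.20 and 5.79 by night with it. Both ADX pairs were fully apart, with rises of 2.43-fold by day (adjusted p = 0.00117) and 2.04-fold by night (adjusted p = 0.0203). The night ADX call of Dusp5 was lost without any 1 of 4 libraries, at most to an adjusted p of 0.142 without noise library a, which was also the library with the most pituitary transcripts (9860 CPM summed over the markers, against 12.8 and 137 in the other 2 libraries of its group).

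Dusp2, a nuclear phosphatase known mainly from lymphocytes, passed in no noise pair. It was at 12.45, 14.2 and 9.08 CPM in unexposed day sham-operated libraries and 14.4, 13.8 and 15.75 after day noise. By night it was at 12.6, 11.1 and 9.89 CPM without noise and 13.3, 10.6 and 12.0 with it. The sham-operated groups overlapped, with log2 differences of 0.30 by day and 0.10 by night. The ADX levels were 19.3, 17.5 and 14.35 CPM by day and 18.9, 14.3 and 19.1 by night without noise, and at 14.0, 15.3 and 16.2 by day and 12.5, 11.5 and 14.9 by night with it. Both ADX pairs overlapped as well, with log2 differences of -0.17 by day and -0.43 by night (adjusted p = 0.282 by night).

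Dusp6 is the cytoplasmic phosphatase specific to ERK and was among the more abundant members. In sham-operated mice it was at 55.0, 57.8 and 57.5 CPM by day and 59.8, 59.5 and 59.3 by night without noise, and at 66.4, 74.2 and 77.6 by day and 89.8, 93.6 and 76.9 by night with it. In ADX mice it was at 56.4, 61.6 and 51.4 CPM by day and 56.6, 55.2 and 59.2 by night without noise, and at 75.1, 78.3 and 88.0 by day and 78.0, 69.8 and 69.3 by night with it. Each noise group lay above every unexposed library of the study, which reached 61.6 CPM at most. Dusp6 rose 1.46-fold by night in sham-operated mice (log2 0.54, SE 0.0786, adjusted p = 0.000363) and 1.43-fold by day in ADX mice (log2 0.51, SE 0.0788, adjusted p = 0.000738). The other pairs gave 1.28-fold by day in sham-operated mice and 1.27-fold by night in ADX mice, neither of which passed (adjusted p = 0.0654 and 0.0515).

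Dusp10 acts on JNK and p38. It was at 12.6, 15.4 and 11.6 CPM by day and 12.5, 12.6 and 12.8 by night in unexposed sham-operated libraries, and at 16.1, 18.8 and 17.9 by day and 18.97, 20.3 and 18.5 by night after noise. Both pairs were fully apart, and only the night one passed (1.53-fold, log2 0.61, SE 0.109, adjusted p = 0.00357), since the day difference of 0.41 had an adjusted p of 0.169. In the ADX libraries Dusp10 was at 13.1, 15.9 and 12.6 CPM by day and 11.5, 12.9 and 14.3 by night without noise, and at 15.3, 17.4 and 19.3 by day and 16.6, 17.3 and 16.6 by night with it. The day ADX groups overlapped and the night ones did not, and neither passed (log2 0.32 and 0.39, adjusted p = 0.0936 and 0.162).

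Of the Sproutys, which block the route from receptor tyrosine kinases to Ras and ERK, Spry4 changed most. In sham-operated mice it was at 11.03, 10.2 and 13.5 CPM by day and 10.8, 14.3 and 11.8 by night without noise, and at 15.1, 16.8 and 19.2 by day and 21.0, 24.8 and 22.3 by night with it. In ADX mice it was at 11.4, 11.9 and 11.3 CPM by day and 11.7, 10.8 and 11.8 by night without noise, and at 16.3, 18.1 and 22.97 by day and 19.9, 16.2 and 15.7 by night with it. Noise and unexposed libraries were apart in all 4 pairs, and the highest levels were those of night noise in sham-operated mice. Spry4 rose 1.85-fold in that pair (log2 0.89, SE 0.134, adjusted p = 0.000594) and 1.66-fold by day in ADX mice (log2 0.73, adjusted p = 0.00402). The rise of 1.51-fold by night in ADX mice passed narrowly (adjusted p = 0.0487), and it was lost without any 1 of 5 libraries, at most to 0.222 without noise library a. By day in sham-operated mice the difference was 1.47-fold (adjusted p = 0.121).

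Spry2 was at 22.5, 21.3 and 21.5 CPM by day and 19.95, 22.3 and 18.3 by night in unexposed sham-operated libraries, and at 23.4, 27.1 and 25.3 by day and 27.4, 28.3 and 31.7 by night after noise. The night groups stood far apart and the day groups narrowly so. Spry2 rose 1.44-fold by night (log2 0.53, SE 0.0889, adjusted p = 0.00201), a call lost in a fit of these 2 groups alone (adjusted p = 0.0875). With ADX it was at 25.6, 22.5 and 21.8 CPM by day and 22.4, 22.0 and 19.3 by night without noise, and at 23.7, 26.6 and 27.6 by day and 28.2, 27.9 and 25.3 by night with it. The day ADX groups overlapped and the night ones did not. The log2 difference of Spry2 was 0.21 by day in sham-operated mice, and 0.16 by day and 0.36 by night in ADX mice (adjusted p = 0.500, 0.292 and 0.0819).

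Spry1 passed in no noise pair. In sham-operated mice it was at 18.8, 20.1 and 17.6 CPM by day and 22.2, 17.96 and 20.9 by night without noise, and at 17.6, 15.5 and 18.5 by day and 20.8, 24.7 and 19.3 by night with it. In ADX mice it was at 16.5, 15.8 and 13.8 CPM by day and 15.9, 16.7 and 13.6 by night without noise, and at 18.4, 18.3 and 20.4 by day and 21.4, 17.6 and 16.7 by night with it. Only the day ADX groups did not overlap, with noise higher by a log2 of 0.31 (SE 0.115, adjusted p = 0.116). The differences in sham-operated mice were -0.13 by day and 0.08 by night. Spred1, which brings the Ras inactivator neurofibromin to the membrane, ranged from 38.3 to 47.4 CPM over all libraries. Its 4 noise pairs all overlapped, with log2 differences from -0.08 to 0.01, and the 95% interval of its mean noise difference ran from -0.092 to 0.038.

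The study asked whether the time of exposure changes the response. Without noise, no member differed between night and day at an adjusted p under 0.05, in sham-operated mice (where 0.265% of all genes did) or in ADX mice (where 0.0181% did). None had an unadjusted p under 0.05 in either comparison, and DESeq2 and limma voom also called 0. After noise in sham-operated mice, 1 of the 10 genes was called by edgeR, against 1.12% of all genes, and 7 had an unadjusted p under 0.05, each higher by night, as had 15% of all genes. The called gene was Dusp5, at 10.01 ± 2.66 CPM by night and 5.46 ± 0.815 by day (SD, n = 3), a log2 difference of 0.88 (SE 0.201, adjusted p = 0.0359). The Dusp5 groups did not overlap, but the call was lost without any 1 of 5 of the 6 libraries (adjusted p = 0.0663 to 0.178). It was also lost without 3 libraries set aside for pituitary or cerebellar transcripts (0.0825). Those set aside were library a of night noise in ADX mice, library b of night noise in sham-operated mice and unexposed day sham-operated library b. Dusp1 was higher by 0.79 and Dusp4 by 0.40 (adjusted p = 0.0901 and 0.0876), and both were called by DESeq2 (0.0306 and 0.0378). After noise in ADX mice, where 0.62% of all genes differed between night and day, 0 members were called by edgeR, DESeq2 or voom, and 0 had an unadjusted p under 0.05.

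Whether noise acted differently by night and by day was tested as an interaction. In sham-operated mice edgeR called 0 members and 0% of all genes. With unadjusted p, 4 members were under 0.05, each with the larger rise by night, and so were 7.3% of all genes. Dusp5 had an interaction of 1.04 on the log2 scale (SE 0.295, 95% interval 0.429 to 1.66, adjusted p = 0.348), and Dusp1 one of 0.98 (SE 0.318, 95% interval 0.312 to 1.64, adjusted p = 0.418). Dusp4 followed at 0.41 and Spry2 at 0.31 (adjusted p = 0.545 and 0.552). In ADX mice 0 members were called, 0 had an unadjusted p under 0.05, and 0.00602% of all genes were called. DESeq2 and voom called 0 members in both interactions. A larger rise by night in sham-operated mice is therefore a difference in values that did not pass the test over all genes.

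**Figure D3:**
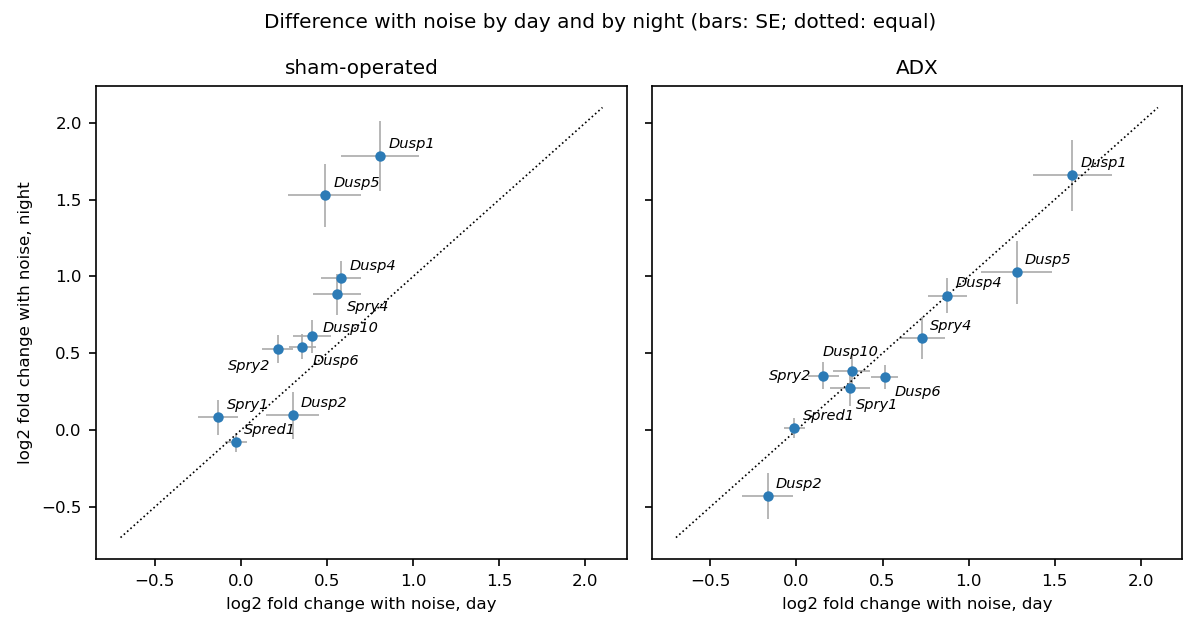
Log2 fold change with noise by day (horizontal axis) against that by night (vertical axis) for the 10 genes in sham-operated (left) and ADX mice (right), with bars of 1 SE and a dotted line of equal values. In sham-operated mice Dusp1 and Dusp5 lie farthest above the line, at 0.81 by day and 1.78 by night and at 0.49 and 1.53, whereas in ADX mice Dusp1 lies close to it at 1.60 and 1.66.

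Adrenalectomy without noise was compared with sham operation at each time. By day, edgeR, DESeq2 and voom called 0 of the 10 genes, and edgeR called 0.0422% of all genes. At an unadjusted p under 0.05 were 2 of the 10 and 11.3% of all genes, a share near that of the members. By night edgeR called 1, Dusp2, where 1.58% of all genes were called. Dusp2 was at 17.45 ± 2.72 CPM in ADX and 11.2 ± 1.36 in sham-operated libraries (SD, n = 3), a rise of 1.56-fold (log2 0.64, SE 0.151, adjusted p = 0.0343). All 3 ADX libraries lay above all 3 sham-operated ones at both times, but the share of all genes that did so was not counted. The day difference of Dusp2 was 0.52 (SE 0.153, adjusted p = 0.19). The unexposed ADX libraries of this comparison are also the controls of the night noise comparison in ADX mice. The night call was lost without any 1 of 4 of the 6 libraries (unexposed sham-operated b or c, or unexposed ADX a or c; adjusted p = 0.101 to 0.183).

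Lymphoid markers moved with Dusp2. The 7 of them summed to 380 to 449 CPM in night sham-operated and 603 to 786 in night ADX libraries, and to 340 to 511 and 614 to 760 by day. By night 4 of the 7 rose, among them the B cell receptor genes Cd79a (log2 0.64) and Cd79b (0.77) and the recombinase gene Rag1 (1.21). The T cell receptor component Cd3e fell by 2.28. None passed by day, and their part in the Dusp2 difference was not tested. The genes most like Dusp2 over the 24 libraries were Blk, a kinase of B cells (Pearson r 0.957, and 0.906 after taking out group means), Glt25d1 (0.951 and 0.886) and Fam129c (0.941 and 0.827).

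**Figure D4:**
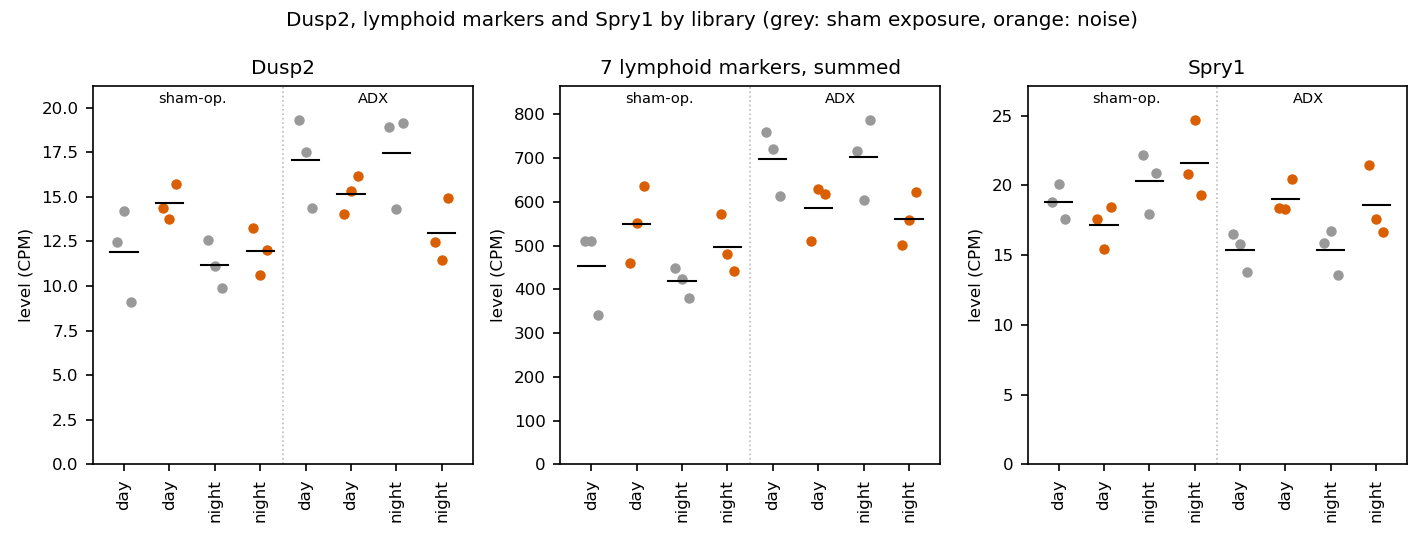
Levels in CPM of Dusp2 (left), of 7 lymphoid markers summed (middle) and of Spry1 (right) in each library; grey is sham exposure, orange is noise, and bars are means of 3 libraries. Unexposed ADX libraries lie above unexposed sham-operated ones for Dusp2 and the markers at both times, and below them for Spry1.

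Spry1 and Dusp1 had lower values after adrenalectomy in unexposed mice. All 3 ADX libraries lay below all 3 sham-operated ones for both genes at both times. Spred1 by day and Dusp6 by night lay so too, and the share of all genes that did was not counted. The log2 difference of Spry1 was -0.30 by day (SE 0.117, adjusted p = 0.335) and -0.40 by night (SE 0.114, adjusted p = 0.0815). At night Spry1 was called by DESeq2 (adjusted p = 0.0302), by voom (0.0277) and by edgeR without the 3 libraries set aside (0.0377). Dusp1 differed by -0.28 by day and -0.36 by night (adjusted p = 0.715 and 0.494).

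The labels were used as given among noise-exposed mice. The glucocorticoid-induced list did not separate the day libraries labelled ADX (0.182 to 0.273) from the sham-operated ones (-0.128 to 0.288). The median log2 difference of the list with noise was 0.029 by day and 0.214 by night in sham-operated mice. In ADX mice it was 0.557 and 0.485. The 10 of 19 genes called in the mean noise contrast rest partly on the libraries whose labels are in question. Noise and hormone were not separated in this list, so it cannot check the labels here. The contrast of surgery after noise and the interactions with surgery compare labels and are not a checked removal of hormone in noise-exposed mice. Among these mice, ADX gave 0 calls among the members and in 0% of all genes, by day and by night. By day 3 members had an unadjusted p under 0.05, Dusp1, Dusp4 and Dusp5, each higher in ADX. By night 4 had, Dusp1, Dusp5, Dusp6 and Spry4, each lower in ADX. Over all genes 11.7% by day and 8.55% by night had such a p. The largest of these values were a log2 of 0.69 for Dusp5 by day (SE 0.201, adjusted p = 0.371) and -0.55 by night (SE 0.198, adjusted p = 0.462). The interaction of noise with surgery gave 0 calls by day and by night among members and 0% of all genes, with 4 members (Dusp1 and Dusp5 at 0.80 and 0.79, Dusp2 at -0.47 and Spry1 at 0.44) and 1 member (Dusp2 at -0.53) at an unadjusted p under 0.05. Of all genes 16.4% and 6.36% were under it, so the night count is near the background. Their adjusted p ran from 0.202 to 0.281 by day and was 0.76 by night. The interaction of all 3 factors also gave 0 calls and 0%, with Dusp5 at -1.30 (SE 0.415, adjusted p = 0.199) and Dusp6 at -0.36 (adjusted p = 0.351) the members under 0.05 unadjusted, against 13% of all genes. DESeq2 and voom called 0 members in each of these 5 comparisons.

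The rest of the pathway was read on the mean of the 4 noise contrasts. In it 399 of the 16607 genes tested (2.4%) were called higher and 399 lower, the background for the list counts below. Of the other 4 MAP kinase phosphatases, Dusp16, which acts on JNK and p38, rose by a log2 of 0.17 (adjusted p = 0.00109), and Dusp7, Dusp8 and Dusp9 did not pass (-0.001, 0.095 and 0.091). Of the other Sprouty and Spred genes 0 of 2 tested passed, with Spred3 at -0.11 (adjusted p = 0.293). Among 11 atypical dual-specificity phosphatases 0 passed, the smallest adjusted p being 0.111 for Dusp26 at 0.27.

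The kinases above and beside the feedback genes moved less. In the route from Ras and Raf to ERK 0 of 19 genes rose and 1 fell, the scaffold Ksr1, which fell by 0.16 (adjusted p = 0.00297). Among 17 adaptors, exchange factors and Ras GTPase activators 1 fell, the ubiquitin ligase Cbl, which fell by 0.25 (adjusted p = 0.0205). Of 20 genes of the JNK and p38 arm 2 rose and 2 fell: the kinases Map3k4 and Map2k6 fell by 0.15 and by 0.42 (adjusted p = 0.000339 and 0.00132), while Mapkapk2, a kinase downstream of p38, rose by 0.10 (adjusted p = 0.013), as did the kinase Map2k4, by 0.097 (0.0239). Of 18 receptor tyrosine kinases 1 fell, Pdgfra, which fell by 0.13 (adjusted p = 0.0458). The medians of these 4 lists lay between -0.054 and 0.022.

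Other transcriptional output of ERK, a list of 18 further target and feedback genes, held 8 that rose and 0 that fell, with a list median of 0.079. The transcription factor gene Fosl1 rose by a log2 of 5.04 (SE 0.243, adjusted p = 7.42e-12), Ier3 by 1.19 (SE 0.0905, adjusted p = 1.72e-08) and the transcription factor gene Fos by 2.96 (SE 0.214, adjusted p = 2.14e-08). Pair by pair, 3 of the 18 rose by day and 7 by night in sham-operated mice, and 7 by day and 6 by night in ADX mice. In the same pairs the Ras and Raf to ERK list had 0 calls in each. The JNK and p38 list had 1 gene up (Mapkapk2) and 2 down (Map3k4 and Map2k6) by day in ADX mice and none in the other pairs. In that same pair 2 adaptor-list genes fell (Cbl and the Ras GTPase activator Rasal2) and 1 receptor tyrosine kinase fell (Pdgfra). Of the 16607 genes tested, 334 were called higher and 333 lower in that pair.

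**Figure D5:**
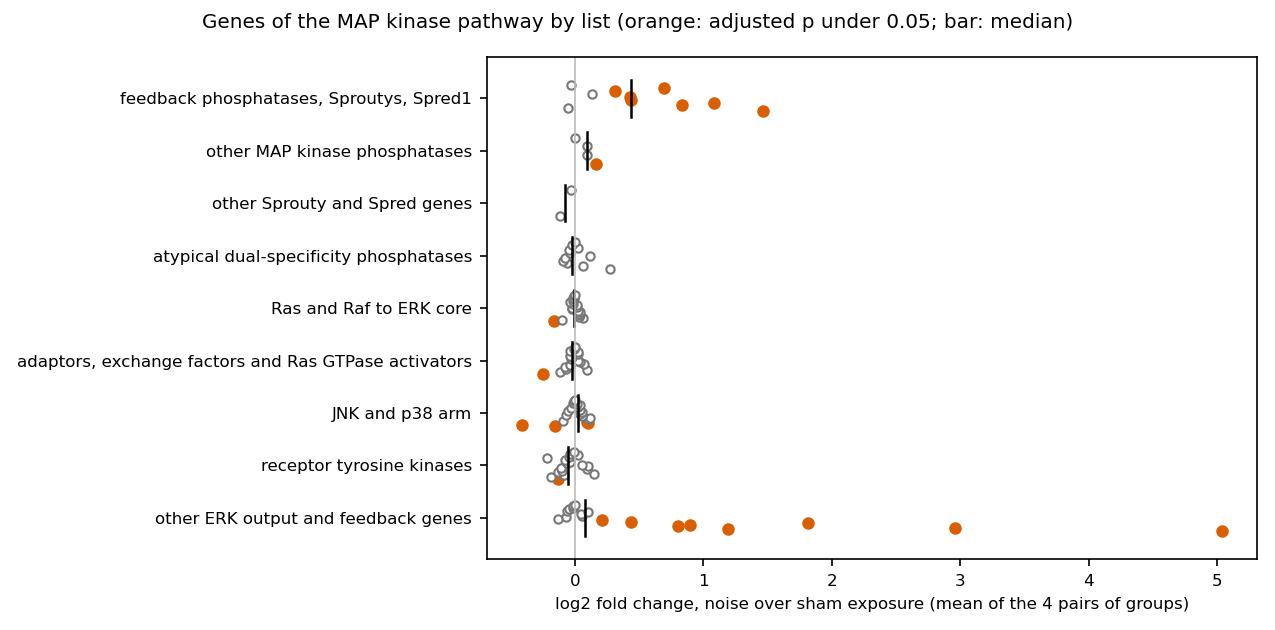
Log2 fold change of noise over sham exposure, as the mean of the 4 pairs of groups (horizontal axis), for each tested gene of 9 lists (rows); orange points have an adjusted p under 0.05 and black bars are list medians. Orange points above 0 gather in the feedback genes described here (7 of 10) and in the other ERK output and feedback genes (8 of 18), and the kinase lists lie near 0.

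Over the 24 libraries the members that rose followed each other and other early response genes. The closest pair was Dusp6 and Spry4 (Pearson r 0.948 of log2 CPM, and 0.597 after taking out group means), and the lowest was Dusp2 and Spred1 (-0.589). The libraries share the 8 groups and a noise effect, so these values describe a common pattern and carry no test. Dusp1 was most like Fos (0.98), Junb (0.975) and Nr4a1 (0.974), Dusp4 most like Gem (0.978), Phlda1 (0.969) and Nab2 (0.962), and Dusp5 most like Socs3 (0.953), Ier3 (0.951) and Nr4a1 (0.949). Dusp6 was most like Trib1 (0.959), Ier3 (0.957) and Atf3 (0.954), Spry4 most like Ier3 (0.944), Nab2 (0.932) and Egr1 (0.932), and Dusp10 most like Nr4a3 (0.905), Zbtb2 (0.901) and Fos (0.901). The genes nearest the remaining 3 were less close: Pvr (0.87), Efna1 (0.866) and Ptgs2 (0.862) for Spry2, Arrdc4 (0.837), Dpep1 (0.826) and Scnn1a (0.825) for Spry1, and Asph (0.8), Six4 (0.791) and Ralgapb (0.79) for Spred1. Differences between the 8 groups held 92.6% of the variance of log2 levels in Dusp4, 90.7% in Dusp1, 65.8% in Spry1 and 43.8% in Spred1.

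Some gene models overlap a neighbour, taken over the whole span of each gene with introns included. In GENCODE vM21 (GRCm38), Dusp1 lies at chr17:26505590-26562128 on the minus strand, where a long model overlaps Ergic1 and the pseudogene Gm8225 on the other strand, and the pseudogene AC122252.4 and the intronic transcript AC122252.1 on its own strand, from which strand cannot separate reads. Dusp5 lies at chr19:53529109-53542431 and overlaps an antisense gene, AC137853.2, and Dusp10 lies at chr1:184013302-184075636 and overlaps 1700056E22Rik on the other strand. The library kit keeps strand, but the strand setting of the counting is not given in the sources used here. Overlap of exons was not checked, so it is not known whether reads from such partners entered the counts of these genes. Spry1 (chr3:37639947-37644598) overlaps an unclassified model, Gm42922, on the other strand. Spry4 overlaps the small RNA models Gm27369 and Gm27804 on the other strand. Dusp2 (chr2:127336159-127338376), Dusp4 (chr8:34807297-34819894), Dusp6 (chr10:99263231-99267489), Spry2 (chr14:105891947-105896819) and Spred1 (chr2:117121374-117182279) overlap no annotated gene.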

How the data were processed

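RNA from 24 cochlear libraries was measured by stranded poly-A sequencing of 50-base single reads, per the labels' protocols. The authors deposited raw counts of reads per gene symbol; TopHat2 2.0.11, HTSeq 0.6p1 and the build mm10 are named in the submitters' processing notes, and the gene annotation and strand setting are not given in the sources used here. A spreadsheet had turned 27 names into dates, and these entries were kept unidentified.

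Counts were tested in R 4.3.3 with edgeR 4.0.16 (filterByExpr, TMM factors from 0.974 to 1.02, 1 coefficient per group over all 24 libraries, robust quasi-likelihood, two-sided tests, Benjamini-Hochberg adjustment over 16607 genes, threshold 0.05). CPM used the TMM factors, and log2 values per library a prior count of 2. Alternatives were RLE factors, no filter, DESeq2 1.42.0, voom of limma 3.58.1, only the groups compared, a replicate block, leaving out each library, leaving out 3 libraries with pituitary or cerebellar transcripts and, for the mean noise contrast, leaving out the day ADX pair. The script was tested on simulated counts for night noise in sham-operated mice. It called 89 of 100 genes changed 2-fold and 98 of 100 changed 4-fold, with 14 false calls. Each gene was drawn at the trend of the spread over genes and not at its own spread.

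The members and lists were chosen with earlier results of these data known. From each list up to 3 genes with the smallest adjusted p in the mean noise contrast were named, and the 3 genes most correlated with each member; Map2k4, Rasal2, the lymphoid and macrophage genes and Dusp7, Dusp8 and Dusp9 were named after their values were seen, and a result for 1 lymphoid gene is not reported here. Libraries with the same letter deviated together (r above 0.1 for each letter) in 1 of 12 pairs of groups, day noise against day sham exposure in sham-operated mice (0.218, 0.195 and 0.289). The letters are the only hint of a pairing. Within groups no library repeated another (chi-square per gene of 6.1 to 41.4).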

Additional observations from a re-analysis of the deposited data

How the results depend on the processing

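The member calls in the mean of the 4 noise contrasts, in night noise of sham-operated mice and in day noise of ADX mice kept counts of 7, 7 and 5 within 1.5 times in the alternatives run, and no value of a called member changed sign. Of the other comparisons, DESeq2 gave 3 members in day noise of sham-operated mice (against 1), 6 in night noise of ADX mice (against 4, with Dusp6 and Spry2 gained), 2 for night adrenalectomy without noise (against 1) and 3 for night against day after noise in sham-operated mice (against 1). Limma voom gave 2 in night noise of ADX mice (against 4), 2 for night adrenalectomy and 5 for night against day after noise. A fit of only the groups compared gave 0, 1, 0 and 0 members in day noise of sham-operated mice, night noise of ADX mice, night adrenalectomy and night against day after noise. Without the 3 libraries set aside for pituitary or cerebellar transcripts, these 4 counts were 0, 2, 2 and 0. Leaving out 1 library gave from 0 to 2, from 2 to 5, from 0 to 1 and from 0 to 1 members in the same order. With the replicate block in the fit of all libraries, day noise of sham-operated mice kept 1 member and night noise of ADX mice had 3, having lost Spry4 (adjusted p = 0.0554). The replicate block changed no other member call in the 18 comparisons. A fit of the day sham-operated groups alone with the block, added after seeing the data, gave 0. The cause of these changes was not tested, beyond the smaller number of libraries in the fits that leave some out.

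Comparisons in which edgeR called 0 members had 0 in each alternative. Dusp5 has the fewest counts of the 10 genes. RNA levels were measured, not phosphatase protein or activity. The collection times in the labels and the series text do not match, so the time after noise of each value is uncertain.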
